A study of Mus musculus with 6 samples.

Results

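The genes described here are 41 gene symbols whose counts were clearly higher in *Patz1* KO than in WT mouse embryonic stem cells (ESCs). They were chosen by their own values in that contrast. Counts were divided by the library total and multiplied by 1000000 (CPM), and a symbol was kept when its lowest KO value was at least 0.5 CPM and at least 1.7 times its highest WT value. Of the 23420 symbols in the files, 12999 had a lowest KO value of at least 0.5 CPM and 49 passed both conditions. Of 9 genes set aside by name from the start (*Sv2a*, *Igsf21*, *Prph*, *Hist1h1t*, *Otx2*, *Igf2*, *Cdkn1c*, *Aire* and *Zcwpw1*), 8 passed and were left out, which gave the 41 members. *Cdkn1c* did not pass. Since the choice used the KO and WT values, the differences of members between the genotypes are given as a description without a test.

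RNA-seq was performed on E14 mouse ESCs of 2 genotypes, wild type (WT) and *Patz1* -/- (KO), with 3 libraries each. Both were grown in medium with LIF and inhibitors of MEK1/2 and GSK3 (2i). The KO was made in WT E14 cells with CRISPR/Cas9 and a single guide RNA, and multiple KO lines were derived from single clones. The study describes the libraries as biological replicates, but the sources do not say whether the 3 KO libraries came from 1 clone or several, so an effect of a clone cannot be told apart from that of the genotype. Libraries held 11040756 to 47721070 counts, and the 2 shallow ones were replicate 3 of each genotype. In these, 12.5% to 14.4% of counts lay on *Rn45s* (ribosomal RNA precursor) and 4.56% to 5.31% on *Lars2*, against at most 3.03% and 0.162% in the other 4. *Patz1* itself was at 61.0 to 74.7 CPM in WT and 28.5 to 31.7 CPM in KO.

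PATZ1 is a zinc finger protein with a POZ domain and AT-hooks. Its zinc fingers resemble those of MAZ, and both bind G-rich DNA. In ESCs kept in 2i medium, genes of muscle, blood vessel, blood and nerve cells are silent or low, since the cells are held before the choice of a lineage. Many genes of the actin cytoskeleton and of smooth muscle are controlled by serum response factor (SRF), which binds a short A/T-rich element, the CArG box, and is helped by the MRTF cofactors when actin filaments form.

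The sequences before their transcription starts were read from the promoter windows of RefSeq on GRCm38.p6 (250 bases before to 50 bases after each start). A window was given for 29 of the 41 members and for 11685 of the genes tested. The CArG box, 10 bases long with 6 central A or T bases, was searched after the members had been seen. It lay in the window of 3 members (10.3%), *Fhl2*, *Myl9* and *Gm3558*, and of 1.55% of all genes with a window. With 1 of the 6 central bases allowed to be G or C, a match lay in 7 members (24.1%) and in 10.8% of all genes. Of the 6 members on the smooth muscle and actin cytoskeleton list, 5 had a window and 4 of these held such a match (*Fhl2*, *Myl9*, *Acta2* and *Flnc*). Among other genes of that list, 8 of the 29 with a window held one, and of the 7 with a window that were called higher 2 did (*Cnn2* and *Vcl*). The strict box lay in 2 of the 5 members and in 6 of the 29 others. The 4 members are printed to show these elements, on the strand of the gene, with each match in capitals and its first base counted from the start (-1 is the base before it). Stretches within an annotated exon are cut to 30 bases around the match: the match before the outer start of *Fhl2* lies in an exon of transcript Fhl2-202, and both matches of *Acta2* lie in an exon of transcript Acta2-201.
Fhl2 inner start at -31 (chr1:43163962-43164161, minus strand): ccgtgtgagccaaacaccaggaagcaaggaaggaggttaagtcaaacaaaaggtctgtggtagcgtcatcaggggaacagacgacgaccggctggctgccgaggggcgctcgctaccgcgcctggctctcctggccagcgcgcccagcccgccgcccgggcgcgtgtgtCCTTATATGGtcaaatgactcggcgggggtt
Fhl2 outer start at -96 (chr1:43196838-43196867, minus strand): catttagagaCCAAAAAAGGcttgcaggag
Myl9 at -161 and -99 (chr2:156775264-156775419, plus strand): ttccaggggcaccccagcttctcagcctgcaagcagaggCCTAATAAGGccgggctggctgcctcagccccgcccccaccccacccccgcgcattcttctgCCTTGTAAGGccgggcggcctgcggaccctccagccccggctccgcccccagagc
Acta2 at -84 (chr19:34255438-34255467, minus strand): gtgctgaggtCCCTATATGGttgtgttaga
Acta2 at -34 (chr19:34255388-34255417, minus strand): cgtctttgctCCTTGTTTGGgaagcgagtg
Flnc at -163 (chr6:29432953-29433152, plus strand): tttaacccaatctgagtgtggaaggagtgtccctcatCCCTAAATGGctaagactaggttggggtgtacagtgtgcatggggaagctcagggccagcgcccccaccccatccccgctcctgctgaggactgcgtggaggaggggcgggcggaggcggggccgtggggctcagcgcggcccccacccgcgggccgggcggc
Both *Fhl2* promoters and the upstream match of *Myl9* have only A and T in the centre, while those of *Acta2* and *Flnc* and the downstream match of *Myl9* hold 1 G or C.

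A G-rich core, GGGAGGG, was searched on both strands as a sequence of the kind bound by MAZ. It was found in 12 of the 29 members (41.4%) and in 31.9% of all genes with a window. In the 100 bases before the start it lay in 6 members (20.7%) and in 17.7% of all genes. No binding was measured in these files. The promoters of *Phf19*, *Tal1* and *Pros1* are shown as examples with the core within 150 bases before a start, chosen after the matches were seen, and *Tceal3*, *Agap2*, *Acta2*, *Slc25a24* and *Wfdc2* also held one there. Capitals mark the core, which reads CCCTCCC when it lies on the opposite strand, and the pair of cores of *Phf19* overlap.
Phf19 at -146 and -142 (chr2:34914027-34914176, minus strand): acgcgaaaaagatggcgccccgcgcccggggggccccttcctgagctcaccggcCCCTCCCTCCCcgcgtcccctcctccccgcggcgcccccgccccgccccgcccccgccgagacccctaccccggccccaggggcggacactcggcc
Tal1 at -67 (chr4:115056226-115056425, plus strand): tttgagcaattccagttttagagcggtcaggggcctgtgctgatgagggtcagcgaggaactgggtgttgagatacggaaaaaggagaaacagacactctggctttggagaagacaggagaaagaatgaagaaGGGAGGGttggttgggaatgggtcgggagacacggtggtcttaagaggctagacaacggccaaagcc
Pros1 at -131 and -64 (chr16:62854107-62854306, plus strand): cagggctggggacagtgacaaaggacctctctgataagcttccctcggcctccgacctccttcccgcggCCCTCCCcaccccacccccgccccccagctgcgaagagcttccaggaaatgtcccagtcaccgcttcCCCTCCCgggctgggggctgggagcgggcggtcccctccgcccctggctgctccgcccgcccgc
CpG-rich promoters, with a CpG content of at least 0.6 of that expected from the base composition, were found for 13 of the 29 members (44.8%) and for 71.1% of all genes with a window.

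Members ranged widely in level but most were low. The mean over WT libraries ran from 0.147 to 18 CPM, with a median of 1.07 CPM, while the median of all 15309 genes with an adjusted p-value was 13.4 CPM. In WT, 20 members (48.8%) had a mean under 1 CPM, and so had 17.9% of all tested genes. In KO, the member means ran from 0.542 to 51.5 CPM with a median of 2.71 CPM, and 10 members exceeded 10 CPM. The ratio of the lowest KO to the highest WT value, by which they were selected, lay between 1.71 and 4.11 with a median of 2.08. The fold of the means lay between 1.79 and 7.57 with a median of 2.8. It reached at least 2 for 40 members and at least 3 for 16. The median coefficient of variation between libraries was 16.1% in WT and 15% in KO. The rule tends to leave out genes whose libraries vary widely, so both values were shaped by the choice. When KO and WT libraries of the same number were set against each other, 29 members were at least 2 times higher in all 3 pairs. The rule already required at least 1.7 times in each pair.

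**Figure D1:**
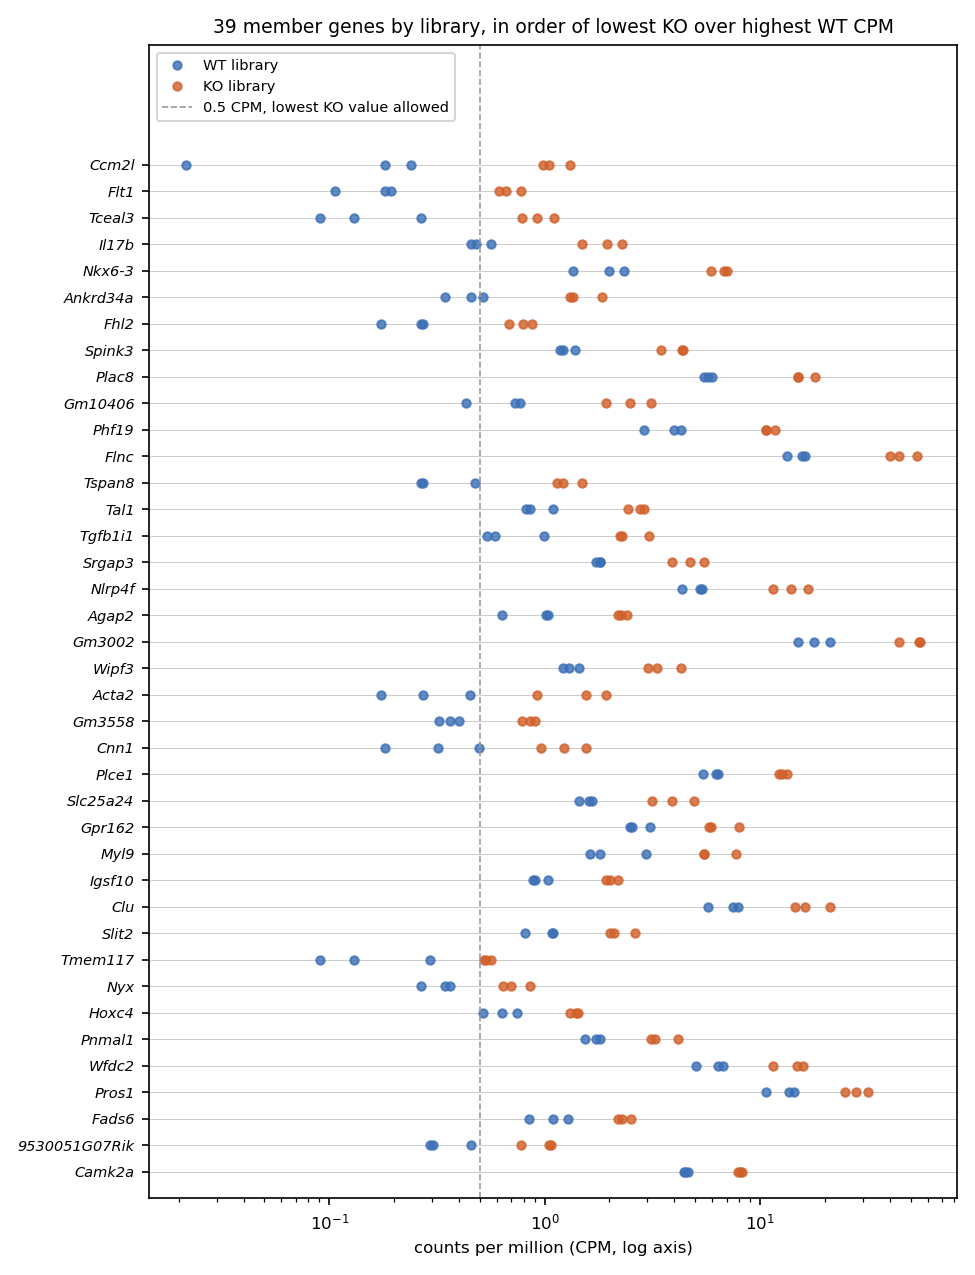
CPM of 39 members in each of the 6 libraries on a log axis, 1 row per gene, ordered by the ratio of the lowest KO to the highest WT value. Blue points are WT and orange points KO libraries, and the dashed line marks 0.5 CPM. The gap between the genotypes in every row was set by the choice of members, while their levels span 0.147 to 51.5 CPM in group means.

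All 41 members had an adjusted p-value in a fit over all genes with the Wald test of DESeq2, and 37 were under 0.05 (Benjamini-Hochberg) and higher in KO. Across all tested genes 7.49% were under that threshold in either direction and 2.70% were higher in KO, and the lowest KO value exceeded the highest WT value for 8.02%. The members were selected on the same contrast, so nothing is read from their count. The 4 members not under the threshold were *Gm3558*, *Tmem117*, *Nyx* and *Hoxc4*, with adjusted p-values of 0.123, 0.178, 0.192 and 0.0535 (DESeq2) and KO means of 0.542 to 1.38 CPM. In 8 members (*Ccm2l*, *Flt1*, *Tceal3*, *Fhl2*, *Tspan8*, *Acta2*, *Cnn1* and *Tmem117*) a WT library held 3 counts or fewer, so their fold changes rest on few reads. Log2 changes, given with a standard error (SE), are log2 fold changes of KO over WT from that fit. All values cover the expression of whole cultures, in which more cells with a transcript and more transcript per cell cannot be told apart.

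A group of 6 members comprised components of actin filaments and their adhesion sites. *Acta2* encodes smooth muscle actin, *Cnn1* calponin, *Myl9* a regulatory light chain of myosin, *Flnc* the muscle filamin that crosslinks actin, *Tgfb1i1* the focal adhesion adaptor Hic-5, and *Fhl2* a LIM domain protein that joins adhesion and transcription. *Acta2* had 0.173, 0.452 and 0.272 CPM in WT replicates 1 to 3 and 0.922, 1.56 and 1.93 CPM in KO replicates 1 to 3. The lowest KO library stood at 2.04 times the highest WT library, where the rule required 1.7 times, with a log2 change of 2.31 (SE 0.54). *Cnn1* had 0.497, 0.319 and 0.181 CPM in WT and 1.55, 0.963 and 1.23 CPM in KO. *Fhl2* had 0.173, 0.266 and 0.272 CPM in WT and 0.796, 0.685 and 0.876 CPM in KO. These 3 genes had 2 to 23 counts in each WT library, and the gap to their KO libraries was set by the rule. *Flnc* was the most abundant of the group, with 13.3, 16.2 and 15.7 CPM in WT and 40.2, 44.0 and 53.6 CPM in KO, a log2 change of 1.65 (SE 0.16). *Myl9* had 2.96, 1.62 and 1.81 CPM in WT and 7.77, 5.5 and 5.52 CPM in KO. *Tgfb1i1* had 0.540, 0.586 and 0.996 CPM in WT and 3.06, 2.25 and 2.28 CPM in KO, a log2 change of 2.01 (SE 0.37). Per kb of exon, *Myl9* and *Flnc* led the group in KO, with 5.39 and 4.89 CPM per kb, and *Fhl2* and *Tgfb1i1* were lowest with 0.414 and 0.453.

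The 34 other genes of the smooth muscle and actin cytoskeleton list that had an adjusted p-value were not picked by the rule. Of these, 8 were higher in KO, 1 was lower and 25 did not pass the threshold (DESeq2, adjusted over all genes). Over all tested genes 2.70% were higher and 7.49% were called in either direction. The list was written with the study's changed genes in view, so its share is not independent evidence. *Tagln* encodes transgelin, an actin-binding protein of smooth muscle. It had 0.821, 1.04 and 1.63 CPM in WT and 4.23, 2.25 and 4.29 CPM in KO, a log2 change of 1.73 (SE 0.36, adjusted p 1.10e-04). It missed the member rule, since KO replicate 2 lay less than 1.7 times above WT replicate 3. *Tnnc2*, a troponin subunit, had a log2 change of 1.85 (SE 0.63, adjusted p 0.0458), although WT replicate 3 had no count. Smaller rises were found for *Cnn2* (0.77, adjusted p 1.08e-04), *Tpm2* (0.67, adjusted p 2.67e-04), *Flna* (0.54, adjusted p 4.84e-06), *Tpm4* (0.48), *Tagln2* (0.42) and *Vcl* (0.33). *Des*, the muscle intermediate filament desmin, fell by 0.89 (log2, SE 0.19, adjusted p 1.48e-04). Of the filamins, *Flnc* and *Flna* were higher. Of the calponins, *Cnn1* and *Cnn2* were higher and *Cnn3* was at -0.06 (SE 0.10). Neither SRF nor the MRTF genes passed the threshold, with log2 changes of 0.31 for *Srf*, -0.02 for *Mkl1* and 0.01 for *Mkl2*. *Myocd*, the smooth muscle cofactor of SRF, had 3 counts or fewer in each library.

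**Figure D2:**
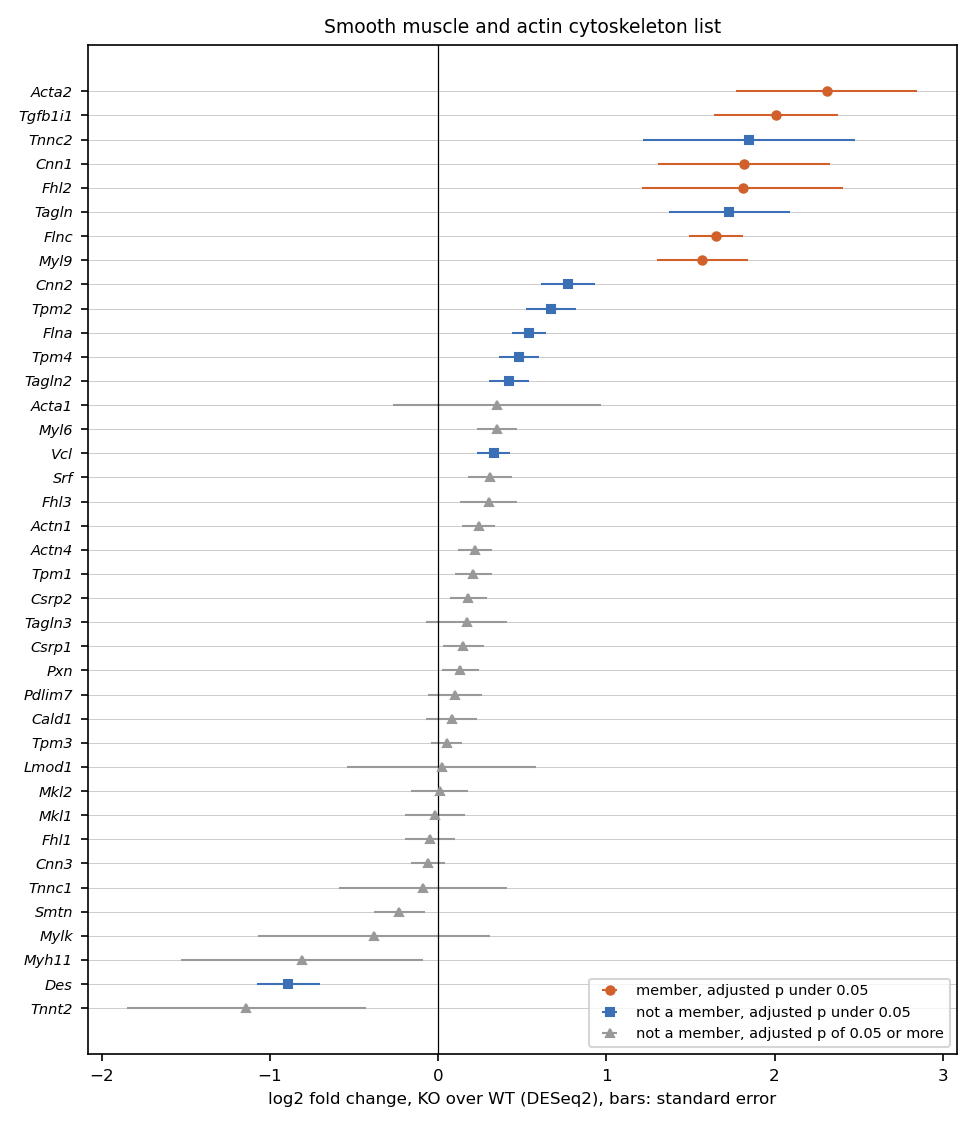
Log2 fold change, KO over WT, of 39 genes of the smooth muscle and actin cytoskeleton list with an adjusted p-value (bars: SE). The 6 members (orange) were chosen for their height, and of the other 33 genes shown 8 were called higher and Des lower (blue squares) while 24 were not called (grey triangles).

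Short marker lists of other cell types were summed per library. That for smooth muscle held 6 genes that are not members (*Myh11*, *Lmod1*, *Des*, *Smtn*, *Myocd* and *Actg2*) and summed to 24.1 to 27.3 CPM in WT and 17.2 to 19.4 CPM in KO, most of it from *Des* and *Smtn*. That sum leaves out *Tagln* and the members *Acta2*, *Cnn1* and *Myl9*, smooth muscle genes that were higher in KO. That of 8 fibroblast markers was 5.07 to 7.56 CPM in WT and 4.03 to 6.19 CPM in KO, and *Col3a1*, *Postn*, *Dcn* and *Fap* had 3 counts or fewer in each library. None of the 3 fibroblast markers that were tested was called (DESeq2), none had an unadjusted p under 0.05, and edgeR called 0. The 7 primitive endoderm markers summed to 79.8 to 86.0 CPM in WT and 69.4 to 74.2 CPM in KO, the 7 trophoblast markers to 58.0 to 68.7 and 46.4 to 53.1, the 7 mesoderm and blood markers to 82.5 to 117 and 75.5 to 86.6, and the 7 neural markers to 152 to 204 and 153 to 203. Of these 4 lists *Cdx2*, *Krt8*, *Kdr* and *Pecam1* were called, each lower in KO, and *Ptprc* had 3 counts or fewer in each library. The primitive endoderm sum was mostly *Lama1* and hides *Foxa2*, which had no count in WT and 22, 7 and 2 counts in KO replicates 1 to 3, with no adjusted p-value. The mesoderm and blood sum was mostly *Pecam1* (mean 84.5 CPM in WT and 65.2 CPM in KO), and the neural sum mostly *Tubb3* (145 and 151 CPM). The former hides *Runx1*, with means of 0.618 CPM in WT and 1.29 CPM in KO. Its log2 change was 1.03 (SE 0.42), and it was not called (adjusted p 0.136, DESeq2). The part of such cells in the member values was not tested. The 8 ESC markers summed to 4960 to 5990 CPM in WT and 5640 to 6350 CPM in KO, and 1 of them, *Dppa5a*, was called higher.

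Some members have roles in blood vessels and cell signalling, and *Ccm2l* and *Flt1* came first in the order by ratio. *Ccm2l*, a paralogue of the cerebral cavernous malformation gene Ccm2 that is known from endothelium, had 0.0216, 0.24 and 0.181 CPM in WT and 0.985, 1.05 and 1.31 CPM in KO. Its gap was the widest among members, with a log2 change of 3.08 (SE 0.68), but WT held only 1, 9 and 2 counts. The value was 2.34 without WT replicate 1 and 4.21 without WT replicate 2. *Flt1*, a receptor for vascular endothelial growth factor (VEGF), had 0.194, 0.106 and 0.181 CPM in WT and 0.775, 0.663 and 0.613 CPM in KO, a log2 change of 2.18 (SE 0.67). The other main VEGF receptor moved the other way: *Kdr* went from 2.51 ± 0.641 to 1.17 ± 0.226 CPM (SD, n = 3 each), a log2 change of -1.13 (SE 0.33, adjusted p 0.0119, DESeq2). *Flt4* was at -0.82 (adjusted p 0.253). Of the 10 other genes in this receptor list, *Acvrl1* (1.32, adjusted p 0.0292) and *Fgfr2* (1.23, adjusted p 0.0131) were higher and *Eng* (-0.53, adjusted p 0.0186) was lower. *Il17b*, a cytokine of the interleukin 17 family, had 0.562, 0.479 and 0.453 CPM in WT and 2.28, 1.95 and 1.49 CPM in KO. The KO libraries were spread more than the WT libraries, and the log2 change was 1.98 (SE 0.40). *Tspan8*, a tetraspanin of the cell surface, had 0.475, 0.266 and 0.272 CPM in WT and 1.49, 1.22 and 1.14 CPM in KO. Among 9 other tetraspanins *Tspan6* was called higher (0.85, adjusted p 1.79e-07), and the other 8 were not called.

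Regulators of transcription and chromatin formed a further group. *Nkx6-3*, a homeobox factor of the stomach epithelium, had 2.33, 2.00 and 1.36 CPM in WT and 7.04, 5.95 and 6.83 CPM in KO, a log2 change of 1.77 (SE 0.23). Its closest paralogues were not called, *Nkx6-2* at -0.02 (SE 0.23) and *Nkx6-1* at 1.01 (SE 0.85), and of 6 tested relatives *Nkx1-2* was higher (0.59, adjusted p 0.00681). *Phf19*, a Polycomb-like subunit that guides the complex PRC2 to chromatin, had 3.97, 4.28 and 2.90 CPM in WT and 10.7, 11.8 and 10.7 CPM in KO, a log2 change of 1.57 (SE 0.18). The 2 other Polycomb-like genes passed neither the DESeq2 nor the edgeR threshold, nor an unadjusted p of 0.05, with 0.06 (SE 0.25) for *Phf1* and 0.08 (SE 0.09) for *Mtf2*. *Mtf2* was at 442 ± 30.5 CPM in WT and 456 ± 11.1 CPM in KO (SD, n = 3 each). *Tal1*, a helix-loop-helix factor that specifies blood, had 0.821, 0.852 and 1.09 CPM in WT and 2.89, 2.78 and 2.45 CPM in KO, a log2 change of 1.67 (SE 0.32). Of its 9 tested partners and paralogues *Lmo4* was higher (0.78, adjusted p 4.71e-04), while *Gata1*, *Gata2*, *Lmo2* and *Ldb1* were at 0.26, 0.09, 0.41 and -0.04 and were not called. *Hoxc4* had WT values of 0.518 to 0.745 CPM and KO values of 1.31 to 1.43 CPM.

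The secreted and extracellular members included some of the more abundant ones. *Clu* encodes clusterin, an extracellular chaperone, and had 7.49, 7.90 and 5.71 CPM in WT and 21.2, 16.2 and 14.6 CPM in KO. *Plac8*, a small cysteine-rich protein first known from placenta, had 5.98, 5.72 and 5.52 CPM in WT and 18.1, 15 and 15 CPM in KO, a log2 change of 1.52 (SE 0.16). In both genes, as in every member by the rule, each KO library was above each WT library. *Spink3* (named Spink1 in the annotation), a trypsin inhibitor of the pancreas, had 1.38, 1.22 and 1.18 CPM in WT and 4.36, 3.47 and 4.38 CPM in KO. *Igsf10*, an immunoglobulin superfamily member, had 0.886, 1.04 and 0.906 CPM in WT and 2.20, 2.01 and 1.93 CPM in KO. *Pros1*, the anticoagulant protein S, ranged from 10.7 to 14.4 CPM in WT and from 24.7 to 31.6 CPM in KO. *Wfdc2*, a whey acidic protein family member, ranged from 5.07 to 6.71 CPM and from 11.5 to 15.8 CPM. Per kb of exon, *Wfdc2* (12.3 CPM per kb) and *Plac8* (10.1) stood above *Pros1* (6.86), *Spink3* (5.58) and *Clu* (5.04) in KO. *Slit2*, a guidance ligand for ROBO receptors, ranged from 0.815 to 1.09 CPM in WT and from 2.01 to 2.63 CPM in KO.

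Of the 31 other genes of the extracellular matrix, secreted and protease list with an adjusted p-value, 12 were higher and 1 (*Lamc1*) was lower. Over all tested genes 2.70% were higher and 7.49% were called in either direction. This list and the other family lists were also assembled with the study's changed genes in view, so such shares are not independent evidence. The highest log2 changes among the called genes were 1.20 for *Vwa1*, 1.12 for *Wisp1*, 1.05 for *Lipc* and 1.03 for *Adamts10*.

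Members known from nerve cells and from signalling by phosphorylation or small GTPases formed the next group. *Srgap3*, a GTPase activating protein downstream of SLIT and ROBO, had 1.81, 1.73 and 1.81 CPM in WT and 3.90, 5.5 and 4.73 CPM in KO. *Agap2*, a GTPase that enhances phosphoinositide 3-kinase, had 1.02, 1.04 and 0.634 CPM in WT and 2.41, 2.27 and 2.19 CPM in KO. *Wipf3*, a partner of WASP family proteins in actin assembly, had 1.30, 1.22 and 1.45 CPM in WT and 3.31, 3.02 and 4.29 CPM in KO. In these 3 genes the lowest KO library was at least 2 times the highest WT library, where the member rule already required 1.7 times. *Gpr162*, an orphan receptor, had 2.55, 2.50 and 3.08 CPM in WT and 5.80, 7.96 and 5.95 CPM in KO. *Ankrd34a*, an ankyrin repeat protein, had 0.518, 0.346 and 0.453 CPM in WT and 1.36, 1.84 and 1.31 CPM in KO. *Plce1*, a phospholipase C that answers to RAS, ranged from 5.43 to 6.37 CPM in WT and from 12.2 to 13.3 CPM in KO, with a log2 change of 1.10 (SE 0.16). *Nyx*, a leucine-rich protein of the retina, ranged from 0.266 to 0.362 and from 0.642 to 0.859 CPM, and *Pnmal1*, a relative of the paraneoplastic Ma antigens, from 1.54 to 1.81 and from 3.12 to 4.15 CPM.

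*Camk2a*, the alpha subunit of calmodulin kinase II, was the member with the smallest change and the tightest libraries. It had 4.45, 4.47 and 4.62 CPM in WT and 8.26, 8.05 and 7.88 CPM in KO, a log2 change of 0.88 (SE 0.18). *Camk2b* fell while *Camk2a* was higher, from 15.7 ± 2.44 to 7.89 ± 0.931 CPM (SD, n = 3 each; log2 change -0.96, SE 0.16, adjusted p 1.10e-07, DESeq2). *Camk2d* and *Camk2g* were at 0.57 (SE 0.35) and 0.28 (SE 0.15) and were not called. In the same list *Camkv* (0.76, adjusted p 6.48e-04) was higher, and *Prkca* (-0.85, adjusted p 0.00557) and *Prkch* (-1.77, adjusted p 0.0120) were lower. Of the 41 other tested genes of the broad neuronal and synaptic list, 17 were higher, beside 2.70% of all tested genes. This list too was written with the study's changed genes in view, so its share is not independent evidence. Among the 17 were *Syt13* (2.22, SE 0.75, adjusted p 0.0413, DESeq2), *Tnik* (1.37), *Mobp* (1.33) and *Kif1a* (1.15). *Syt13* held only 6, 6 and 1 counts in WT. *Kif5a* (-0.60) and *Reep1* (-1.11) were lower.

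**Figure D3:**
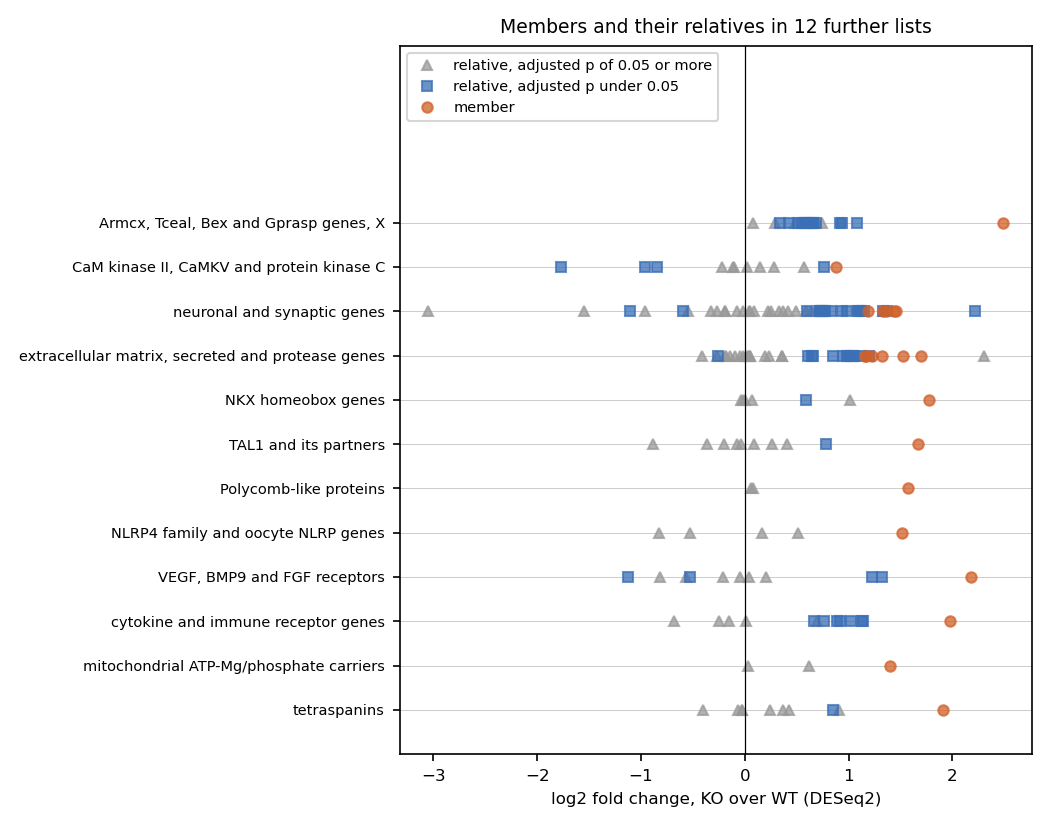
Log2 fold change, KO over WT, of members (orange) and of their relatives with an adjusted p-value in 12 lists, 1 row per list. The members lie to the right because they were chosen for it. In the Polycomb-like, NLRP and mitochondrial carrier rows no relative was called. In the calmodulin kinase and VEGF receptor rows called relatives (blue squares) lie on both sides of 0.

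The remaining members belong to other families. *Nlrp4f*, an oocyte NLRP gene, had 5.29, 5.40 and 4.35 CPM in WT and 16.7, 14 and 11.5 CPM in KO, and none of its 4 tested relatives was called by DESeq2 or edgeR or had an unadjusted p under 0.05. *Slc25a24*, a carrier for ATP-Mg and phosphate of the inner mitochondrial membrane, had 1.66, 1.60 and 1.45 CPM in WT and 3.92, 4.94 and 3.15 CPM in KO, while *Slc25a23* and *Slc25a25* were at 0.62 (SE 0.27, adjusted p 0.184) and 0.03 (SE 0.13). *Fads6*, of the fatty acid desaturase family, had 0.842, 1.28 and 1.09 CPM in WT and 2.28, 2.53 and 2.19 CPM in KO. Its log2 change was 1.19 (SE 0.33), while the median over 91 genes within 2.5 Mb on each side on chromosome 11 was -0.24. *Tmem117*, a transmembrane protein, was the lowest member in KO with 0.525 to 0.566 CPM, and its log2 change of 1.61 (SE 0.71) was 2.24 without WT replicate 2. *Tceal3*, of the transcription elongation factor A like family, had 0.13, 0.266 and 0.0906 CPM in WT and 0.922, 1.11 and 0.788 CPM in KO, a log2 change of 2.49 (SE 0.62). The noncoding *9530051G07Rik*, the only member not annotated as protein coding, had 0.302, 0.293 and 0.453 CPM in WT and 0.775, 1.07 and 1.05 CPM in KO.

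Both *Tceal3* and *9530051G07Rik* lie on the distal part of X, where many genes were higher in KO. Within 2.5 Mb on each side, the median log2 change was 0.44 over 50 genes around *Tceal3*, 22 of them called higher, and 0.43 over 39 genes around *9530051G07Rik*, 21 of them called higher. Over all tested genes 2.70% were called higher. The surroundings of the third X-linked member, *Nyx*, had a median of -0.05. Of 18 tested relatives of *Tceal3* among the Armcx, Tceal, Bex and Gprasp genes of X, 14 were higher and none lower, with a median log2 change of 0.60. This list too was written with the study's changed genes in view, so its share is not independent evidence. The 14 included the abundant *Bex1* (0.66, 427 ± 40.0 CPM in WT and 661 ± 21.7 CPM in KO, SD, n = 3 each) and *Tceal8* (0.60). *Tceal1*, 39604 bases from *Tceal3*, was at 0.08 (SE 0.35). What part of the difference at *Tceal3* and *9530051G07Rik* came from their region was not tested.

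Whether members lie side by side in the genome was examined with GENCODE M21 positions on GRCm38, the build of mm10. The 41 members lay on 18 chromosomes, and no member was next to another, whether among tested genes or among all positioned symbols. Chromosomes 2, 6 and 14 held 4 members each, and none lay on 12, 17 or Y. No 2 members lay within 100 kb of each other, and 2 pairs lay within 1 Mb. *Il17b* (61684887 to 61692538) and *Camk2a* (60925618 to 60988152) on chromosome 18 were 697 kb apart with 10 tested genes between them. *Gm10406* (7006115 to 7027449) and *Gm3558* (7545151 to 7568566) on chromosome 14 were 518 kb apart with 1 tested gene, *Gm3696*, between them. *Ankrd34a* on chromosome 3 (96596636 to 96599775) was 401 kb from *Sv2a*, one of the genes set aside by name, with 14 tested genes between. Both direct neighbours of *Ankrd34a* were near 0, with log2 changes of 0.00 (SE 0.25) for *Polr3gl* at 2455 bases and 0.03 (SE 0.18) for *Lix1l* at 1374 bases.

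The genes next to members were mostly flat. For each member the nearest tested gene on each side was taken, which gave 80 genes that were not members. Of these, 6 (7.5%) were called, 4 higher and 2 lower, beside 7.49% of all tested genes. With the replicate number added to the fit as a block, 10 neighbours were called, and 2131 genes over all in place of 1146. The median log2 change of the 80 neighbours was 0.06, against 0.0087 over all tested genes, and 61 of the 80 lay between -0.5 and 0.5. *Stambpl1*, 757 bases from *Acta2*, was at -0.02 (SE 0.27), and *Leprel2* and *Cd4*, 692 and 709 bases from *Gpr162*, were at 0.07 (SE 0.19) and -0.51 (SE 0.79). The called neighbours on distal X, all higher, were *Ngfrap1* (0.58, adjusted p 3.94e-04), *Mageh1* (0.68, adjusted p 2.33e-04) and *Foxr2* (0.90, adjusted p 0.0151). *Mageh1* lies 54 bases from *9530051G07Rik*. The 2 neighbours that fell were *Slc35g1* beside *Plce1* (-0.90, adjusted p 6.02e-13, 49.2 CPM in WT and 25.7 CPM in KO) and *Os9* beside *Agap2* (-0.46, adjusted p 0.00929). *Slc35g1* lies 75499 bases from *Plce1*.

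**Figure D4:**
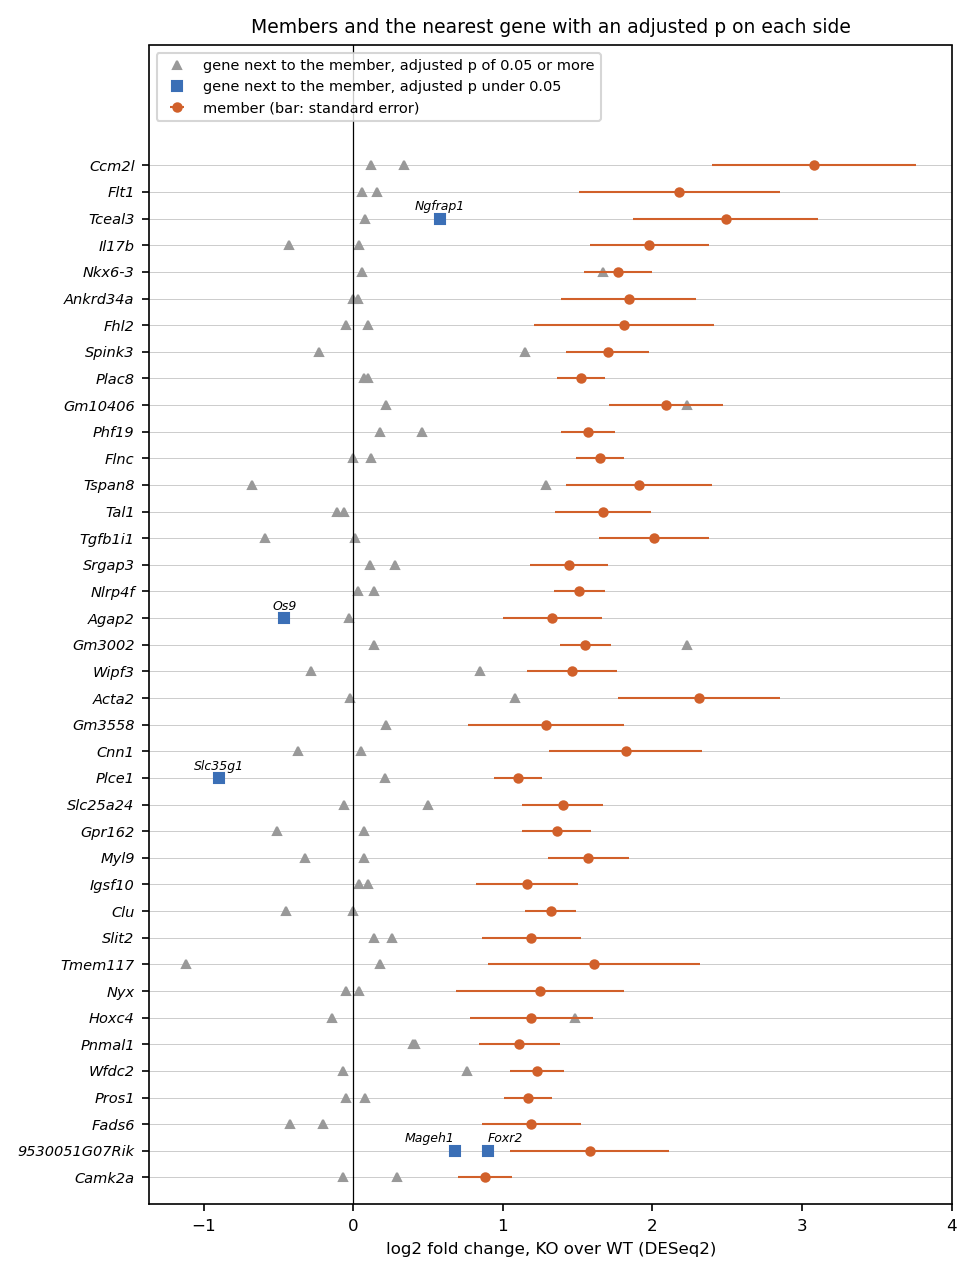
Log2 fold change, KO over WT, of 39 members (orange, bar: SE) and of the nearest tested gene on each side, 1 row per member in the order of the ratio. Most neighbours lie near 0, and 5 called ones (blue squares) are named, with Slc35g1 and Os9 lower.

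A log2 change of at least 1 was found for 6 neighbours (7.5%, against 1.5% of tested genes), and none of these was called. On the other side, *Dbx2* beside *Tmem117* was at -1.12 (SE 0.88), also not called. The 6 were *Ank1*, *Jakmip2*, *Fas*, *Hoxc8*, *4933416C03Rik* and *4930555G01Rik*, each with a WT mean under 0.5 CPM. *Ank1* lies 2772 bases from *Nkx6-3* and was at 1.67 (SE 0.65, adjusted p 0.0994), with 0.259, 0.186 and 0.181 CPM in WT and 0.461, 0.706 and 0.876 CPM in KO. It missed the member rule only because KO replicate 1 was under 0.5 CPM. *Jakmip2*, 40309 bases from *Spink3*, was at 1.15 (SE 0.49, adjusted p 0.150), and *Fas*, 35076 bases from *Acta2*, at 1.08 (SE 0.74, adjusted p 0.521).

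The 3 members of proximal chromosome 14 belong to a family of near-identical predicted genes. *Gm3002* had the highest level of all members, with 17.9, 15 and 21.2 CPM in WT and 54.6, 44.4 and 55.5 CPM in KO, a log2 change of 1.55 (SE 0.17). *Gm10406* had 0.432, 0.772 and 0.725 CPM in WT and 2.49, 3.12 and 1.93 CPM in KO, and *Gm3558* had 0.324, 0.399 and 0.362 CPM in WT and 0.901, 0.856 and 0.788 CPM in KO. Of the 50-base words of their GENCODE transcripts, 97.4% for *Gm3002*, 86.8% for *Gm10406* and 88.1% for *Gm3558* also occurred in transcripts of other genes, 105 of them for each. Words were shared between the 3 members as well, at 38.5% to 47.2% of the words of either. Reads of this family therefore cannot be assigned to 1 copy with certainty, and the 3 values may not be independent. The first 8068566 bases of the chromosome held 24 symbols of the files. Of the 6 that were tested and not members, none was called by DESeq2 or edgeR, 1 (*4930555G01Rik*) had an unadjusted p under 0.05, and 5 had a log2 change above 0. The median of the 6 was 0.18. Among the other members, *Tceal3* shared 12.9% of its words, mostly with *Tceal6*, which had 0.0305 CPM in WT and 0.0858 CPM in KO. The other 37 shared at most 10%, and 27 shared none.

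Overlap with another gene in the files was found for *Wipf3*, *Igsf10*, *Slit2* and *Tmem117*. *Scrn1*, on the strand opposite to *Wipf3*, was at -0.28 (SE 0.21), and *Med12l*, in which *Igsf10* lies on the opposite strand, at -0.66 (SE 0.29, adjusted p 0.187). *Nell2*, opposite *Tmem117*, had 0.166 CPM in WT and 0.186 CPM in KO. The libraries were stranded, but the use of strand in counting was not given in the sources used here.

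The edge of the set was close to genes with similar values. *Camk2a*, *9530051G07Rik* and *Fads6* were the members nearest to the ratio of 1.7, each at 1.71. Just under it, *Fmn1* had 0.389, 0.506 and 0.453 CPM in WT and 0.859, 0.877 and 1.40 CPM in KO, *Kif26a* had 3.61, 4.74 and 5.62 CPM in WT and 9.51, 9.55 and 9.98 CPM in KO (ratio 1.69), and *Cdc42ep1* had 1.14, 0.719 and 0.725 CPM in WT and 2.54, 2.01 and 1.93 CPM in KO (ratio 1.68). The library total also shaped the set. With *Rn45s* and *Lars2* left out of the totals, 43 genes passed and 34 of the 41 members were among them. Among the 7 members lost were *9530051G07Rik*, *Camk2a*, *Gpr162*, *Nyx*, *Pnmal1* and *Pros1*, while *Fhl2*, *Flnc*, *Myl9*, *Acta2*, *Cnn1* and *Tgfb1i1* were kept. With a lowest KO value of 1 CPM, 31 members remained and *Acta2*, *Cnn1* and *Fhl2* were among the 10 lost, and with 0.25 CPM 56 genes passed, all 41 members among them.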

How the data were processed

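Total RNA of 3 WT and 3 *Patz1* KO ESC samples was ribosome-depleted and sequenced as stranded libraries. The authors mapped reads to mm10 and deposited raw counts per gene symbol, 1 file per library, without normalization. The submitters' processing notes list TopHat2 2.1.1, Bowtie2 2.3.1.0, featureCounts 1.6.2 and DESeq2, with no role or order. Members and lists were chosen with earlier results of these data known. Members were found from CPM on file totals. All genes were fitted with DESeq2 1.42.0 (R 4.3.3; genotype alone, two-sided Wald test, Benjamini-Hochberg, default independent filtering), and edgeR 4.0.16 was an alternative. The fit was tested on simulated data. The labels give replicate numbers but do not say what libraries of the same number share. Between WT and KO libraries of the same number, deviations from the genotype mean correlated at 0.469, 0.619 and 0.684 over 11524 genes. The main fit left replicate numbers out. Every SE, DESeq2 call and share of called genes comes from that fit unless another is named. With the replicate block, 2131 genes were called, 973 of them higher, in place of 1146 and 414. Of the symbols, 23255 had a position in GENCODE M21 or RefSeq (230 from RefSeq coordinates, 1248 by an older name). Some results, among them the values of 2 members, are not reported here. The other 39 members were named, with values per library for the 10 leading members, up to 4 per list, those at the edge of the rule and, chosen after their values were seen, *Cnn1*, *Myl9*, *Gm3002* and *Gm3558*. Nkx1-1 and Nlrp4d were not analysed here. Counts of 3 were taken as the floor. It corresponded to 0.0629 to 0.272 CPM and covers counting error only.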

Additional observations from a re-analysis of the deposited data

How the results depend on the processing

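Direction was fixed by the choice of members and is no sign of stability. There were 491 combinations of a member and an alternative fit (edgeR, TMM factors, count filter, no independent filtering, replicate block, 1 library or both replicates 3 left out). The call was the same in 449, lost in 39 and gained in 3, and 28 members had the same call throughout. With the replicate block, 2131 genes were called over all genes, 973 of them higher, and 10 neighbours of members in place of 6, while 36 members and 86 relatives were called and *9530051G07Rik* was lost (adjusted p 0.0522, DESeq2). The block changed the call of no other member. Without 1 library, calls over all genes ranged from 583 to 1341, those higher in KO from 226 to 508, called relatives from 41 to 73 in place of 74, called members from 28 to 37 and called neighbours from 4 to 7. Leaving out KO replicate 1 gave 583 genes, KO replicate 2 gave 590, WT replicate 1 gave 605 and WT replicate 2 gave 664, each with 1 library fewer in the fit. *Flt1*, *Fhl2* and *9530051G07Rik* each lost the call in 5 of the 6 fits that leave out a library. *Hoxc4* was called with edgeR (adjusted p 0.0337) and with the count filter (0.0434), and *Gm3558* with edgeR (0.0370). The number of genes that pass the rule was 88 at a ratio of 1.5, 22 at a ratio of 2, 51 to 80 without 1 library (leaving out WT replicate 2 gave 80, WT replicate 3 gave 73 and KO replicate 3 gave 66) and 105 without both replicates 3. With TMM library sizes it was 50, with 36 members among them. The share of member promoters with the G-rich core was 20.7% in the 100 bases before the start in place of 41.4%. Depth limits the low members: 3 counts equal 0.272 CPM in WT replicate 3.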
